A study of Mus musculus with 64 samples.

Results

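The TNF response of 3T3-L1 adipocytes was read from 43 of the series' 64 arrays, which are the 21 arrays titled as TNF-treated without ASA or TGZ and the 22 arrays titled as vehicle. The arrays were chosen by title alone, and every one of the 6963 deposited features entered the comparison. 3T3-L1 is a mouse fibroblast line that is differentiated in culture into fat cells, here taken between days 8 and 12 of differentiation. The TNF cultures received TNFα at 3 ng/ml for 48 h and again at 3 ng/ml for 24 h. The vehicle cultures spent those last 24 h in medium with 0.2% BSA. Titles and design text call them vehicle, but their source text lists the same 48 h of TNFα beforehand, so the comparison may be of continued TNF with its withdrawal, and the labels do not settle this. The rest of the series, 21 arrays of cells given TNF and then ASA and TGZ, entered only the shared estimate of the spread. Each array carried RNA of 1 culture labelled with Cy5, beside a Cy3-labelled RNA pool that came from differentiated 3T3-L1 cells without treatment.

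TNF is an inflammatory cytokine that binds receptors on the adipocyte surface and activates NF-κB and MAP kinase signalling. In fat cells it is known to lower the adipocyte transcription factors PPARγ and C/EBPα and genes of glucose uptake and fat storage, and to raise chemokines and acute phase genes. For these reasons it is widely used to make cultured adipocytes insulin resistant. None of this could be read gene by gene here. The identifiers name a plate and a well, 0 of 6963 matched the gene table, and the adipocyte, fibroblast, macrophage, inflammatory and metabolic gene lists could not be looked up, nor could the cell type be checked against its markers. The results below therefore describe the size, direction and repeatability of the response over features.

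The values are log ratios with 2 decimals and 0 missing values, from -3.48 to 3.48 on the TNF arrays and from -2.72 to 3.13 on the vehicle arrays. The base of the log is not given in the sources used here, and base 2 is assumed wherever a fold is printed. The dyes make culture over pool the likely direction, and with the opposite direction all statements of higher and lower would swap. Group means of single features spread across features with an SD of 0.332 in TNF and 0.0356 in vehicle. The vehicle value lies below the median standard error of a vehicle mean (0.0524), as it would if each feature had been centred on the vehicle arrays, so levels against the pool are not read here, only differences between groups. Array medians lay between -0.05 and 0.02 in TNF and between -0.04 and 0.07 in vehicle. A pair of vehicle arrays stood apart, with SDs over features of 0.60 for array 6 and 0.593 for array 17, where the third highest vehicle SD was 0.313. On array 17 the row letter of the well accounted for 67.4% of the variance, and on array 6 for 1.59%. It also accounted for 34.2%, 33.1% and 30.4% on vehicle arrays 18, 22 and 5. On TNF arrays 16 and 5 it accounted for 30.2% and 20.6%, and on the other TNF and vehicle arrays for less. Results that move without vehicle arrays 6 and 17 are given both ways. Among all pairs of the 43 arrays, 29 correlated across features below -0.3, the lowest at -0.500. All 29 included a vehicle array, and 19 included vehicle array 6 or 17. The direction of the ratio was kept because the labels name the dyes.

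TNF arrays differed from vehicle arrays in 4111 of 6963 features, 59.0% of all features, at an adjusted p under 0.05 in limma. Of these, 1883 (27.0% of all features) were higher and 2228 (32.0%) lower in TNF. Most differences were small. Over all features the difference, TNF minus vehicle, had a median of -0.021 log units, its middle portion between the 25th and 75th percentiles ran from -0.22 to 0.20, and the 5th and 95th percentiles were -0.46 and 0.56. The standard error of a feature's difference had a median of 0.0772, and the smallest difference called was 0.101. A typical called difference therefore was of modest size, with a median of 0.313 log units. Against a 1.2-fold difference at base 2, limma's test called 737 features, 10.6% of all, of which 433 were higher and 304 lower. The arrays were treated as independent. However, same-numbered TNF and vehicle arrays mostly deviated together, and some features shifted between early and late replicate numbers in both groups, as described below.

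With the values as deposited, the lower side held more features and the higher side the larger changes. Among all 6963 features, 3265 had a positive and 3698 a negative difference. Differences between 0.1 and 0.25 in size were positive in 42.7% of 2231 features, and those between 0.25 and 0.5 in 44.8% of 2250. Above that the balance turned. At 0.5 or more, which is 1.41-fold at base 2, 419 called features were higher and 236 lower. At 1 or more, a 2-fold change at base 2, the numbers were 38 and 22. They were 30 and 12 under a common spread of all arrays and 27 and 14 after quantile normalization. Replicate numbers 1 to 11 alone gave 50 and 9, and numbers 12 upwards alone a weaker lean of 43 and 31. All 10 features beyond 1.5 were higher, while the largest fall was 1.39. The percentiles show the same lean, with the 99th at 0.90 and the 1st at -0.70. Which direction held more of all called features depended on scaling. Centring every array on its median gave 2059 higher and 1997 lower features, a common spread of all arrays gave 1602 and 1453, and quantile normalization gave 1504 and 1644. Higher features outnumbered lower ones at 0.5 or more in these 3 settings, with 450 against 196, 390 against 148 and 334 against 162.

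**Figure D1:**
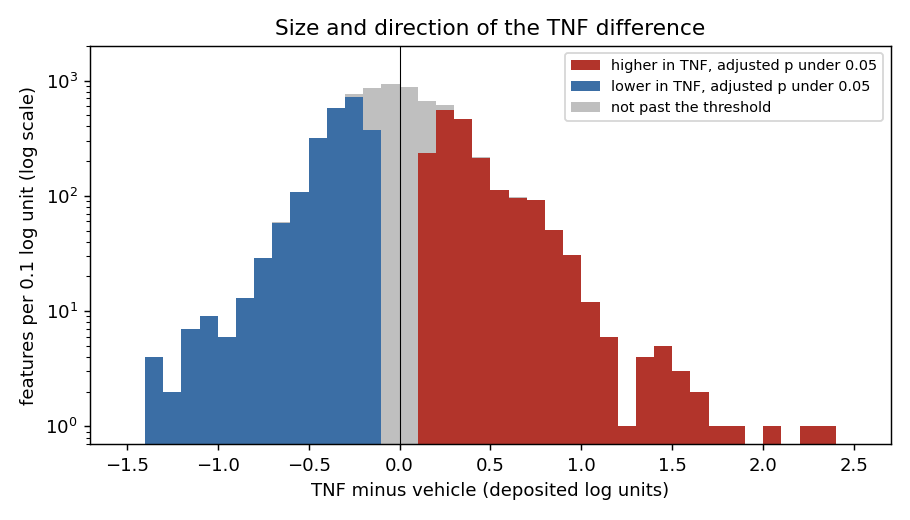
The x axis gives TNF minus vehicle in deposited log units and the y axis, on a log scale, the number of features per 0.1 log unit, stacked by call. Features higher in TNF reach 2.35 and those lower in TNF reach -1.39, and no difference under 0.1 in size was called.

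A small share of the features carried much of the summed squared change. When each difference was squared and summed over all features, those of at least 0.5 held 51.7% of the sum, although only 655 features of that size (9.41% of all) were called. Those of at least 1 held 14.1%. Differences below 0.1 in size, found in 1824 features, held 0.749%.

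Larger differences were repeated on more arrays. For each feature, the number of TNF arrays on the side of its own difference, above or below the vehicle mean, was counted. Over the called features this number had a median of 20 of 21 for the higher and 19 of 21 for the lower ones, and 3435 of the 4111 (83.6%) had at least 18. All 21 TNF arrays lay on the same side in 1183 features, 17% of all features, of which 595 were higher and 588 lower. These counts use the same arrays as the test and are a description of it. A count on the side of a feature's own difference also tends to rise with that difference. The climb with size is therefore a description too. The share with all 21 on 1 side was 1.97% for differences between 0.1 and 0.25, 28.7% between 0.25 and 0.5, 73.6% between 0.5 and 1, and 90.0% between 1 and 1.5. At the other end, 128 called features had fewer than 16 arrays on their side, with a median size of 0.194 log units.

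**Figure D2:**
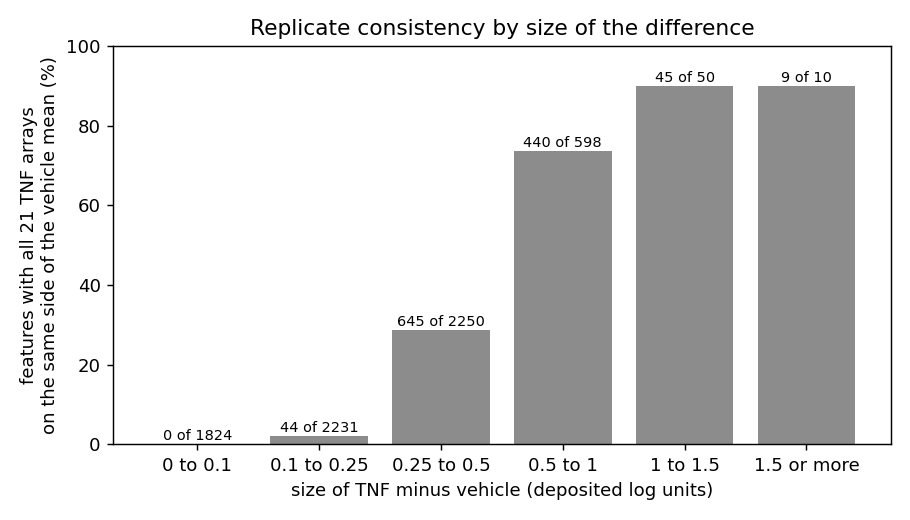
The x axis groups all features by the size of TNF minus vehicle in deposited log units, and each bar, from 0, gives the percentage of them with all 21 TNF arrays on the same side of the vehicle mean. The share climbs with size, with 645 of 2250 features between 0.25 and 0.5 and 440 of 598 between 0.5 and 1.

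Complete separation of the groups was rare and mostly upward. In 58 features, 0.833% of all, no TNF array overlapped any vehicle array. The TNF arrays lay above all vehicle arrays in 50 of them (0.718% of all features) and below in 8 (0.115%). The numbers rested in part on single arrays. Leaving out an array can only keep or raise them. With 1 array left out in turn, the total had a median of 60 over the TNF arrays and 60 over the vehicle arrays. Without vehicle array 6 the numbers were 57 above and 24 below, without array 17 they were 63 and 10, and without both 71 and 27. Leaving out TNF array 6 instead gave 76 separated features in all, and leaving out vehicle array 4 gave 73. After removal of well-row means from every array the total was 119, while a common spread or quantile normalization left 21 or 19.

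The spread between TNF arrays was set against that between vehicle arrays. The SD of a feature had a median of 0.226 in TNF and 0.246 in vehicle, and 0.193 in vehicle without arrays 6 and 17. The TNF SD exceeded the vehicle SD in 40.4% of features over all arrays, but in 70.5% without that pair. Which group varied more therefore turned on that pair of vehicle arrays. The pair was singled out for its high SDs, and no TNF array was left out to match. Features with larger differences had wider spreads in both groups, with median SDs of 0.209 in TNF and 0.233 in vehicle below 0.1 log units, 0.383 in TNF and 0.297 in vehicle between 1 and 1.5, and 0.404 in TNF and 0.504 in vehicle for the 10 features beyond 1.5.

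The named features were picked by size and by the ratio of difference to error. The largest rise was that of MSK10c19. Its values on TNF arrays had a lowest of -0.66, a median of 2.64 and a highest of 3.48, against -0.97, 0.125 and 1.25 on vehicle arrays. TNF array 4 alone lay among the vehicle values, and the other 20 TNF arrays were at 1.56 or more, above every vehicle array. The means were 2.44 ± 0.836 in TNF (SD, n = 21) and 0.0909 ± 0.420 in vehicle (SD, n = 22). TNF exceeded vehicle by 2.35 (SE 0.176, limma adjusted p = 5.98e-18), or 5.10-fold at base 2, and 2.51 without TNF array 4.

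The rise best determined against its error was that of MSK06j14. Its TNF values had a lowest of 1.06, a median of 1.59 and a highest of 1.82, against -0.54, 0.04 and 0.41 on vehicle arrays. The groups did not overlap. With means of 1.55 ± 0.184 in TNF (SD, n = 21) and 0.015 ± 0.242 in vehicle (SD, n = 22), it differed by 1.54 (SE 0.0668, adjusted p = 4.57e-30 in limma), or 2.90-fold at base 2. By size it ranked 9, behind MSK10c19 at 1, whose TNF SD was wider.

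MSK13m2, the largest fall, had TNF values from -2.18 to -0.29 with a median of -1.47, against vehicle values from -0.88 to 0.93 with a median of -0.055. Of the TNF arrays, 18 lay below every vehicle array, and 3 lay within their range, while many vehicle arrays lay within the range of the TNF arrays. Means of -1.43 ± 0.534 in TNF (SD, n = 21) and -0.0423 ± 0.620 in vehicle (SD, n = 22) put TNF minus vehicle at -1.39 (SE 0.163, limma adjusted p = 1.38e-10). The difference within a replicate number ran from -2.60 to -0.01, so its size was not the same from 1 pair of arrays to the next.

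The fall best determined against its error was that of MSK29d7, whose values lay between -1.55 and -0.68 on TNF arrays with a median of -1.12, against values from -0.70 to 0.42 on vehicle arrays with a median of 0.055. A single TNF array, number 17, lay within the vehicle range, which vehicle array 6 set at its low end. Means of -1.12 ± 0.276 in TNF (SD, n = 21) and 0.0255 ± 0.241 in vehicle (SD, n = 22) differed by -1.15 (SE 0.0837, adjusted p = 2.11e-18 in limma), or 2.22-fold lower at base 2. Within replicate numbers, MSK06j14, MSK13m2 and MSK29d7 moved in their own direction in 21 of 21 pairs, and MSK10c19 in 20.

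**Figure D3:**
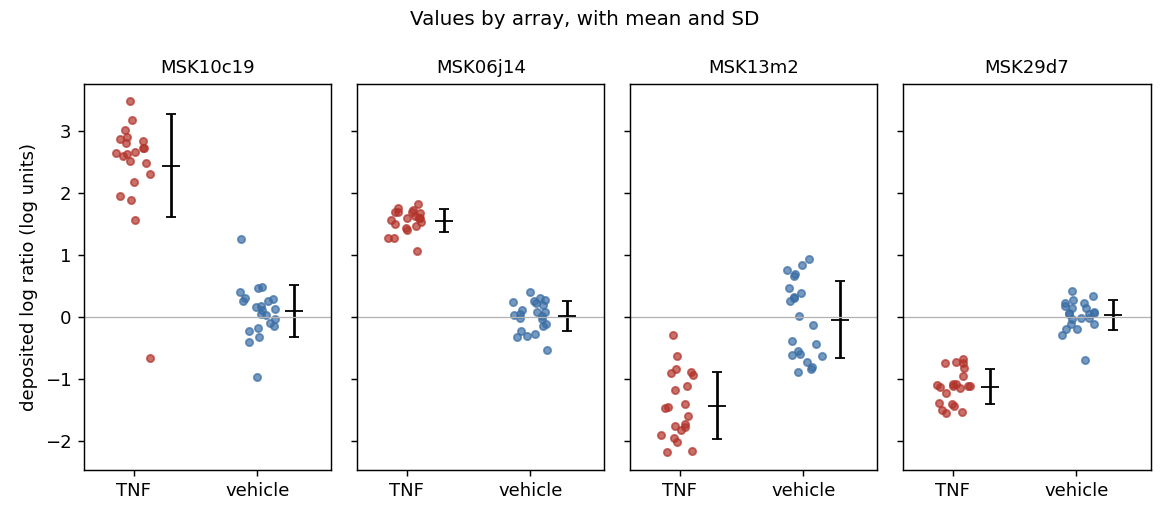
Each panel shows a named feature, with 1 point per array, TNF left of vehicle, in deposited log ratios, and a bar for the mean and SD of each group. MSK06j14 separates the groups on all arrays, MSK10c19 on all but TNF array 4, those of MSK29d7 overlap through TNF array 17, and those of MSK13m2 overlap over a wider range.

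With the values as deposited, the strength of the profile differed between TNF arrays. For each replicate number, the mean TNF minus vehicle profile was computed from the arrays of all other numbers, and the array left out was set against it across the 6963 features, as a slope of 1 for a response of the same strength. Features are not independent replicates and no p is given. TNF arrays had slopes from 0.533 to 1.29 with a median of 1.03, and correlations across features from 0.626 to 0.874. Arrays 3, 6, 9 and 19 were the weakest, between 0.533 and 0.672, and the other 17 lay between 0.830 and 1.29. Vehicle arrays of the same numbers had slopes from -0.501 to 0.169 with a median of 0.0441, and vehicle array 22 had -0.0232. The weakest TNF array thus lay above every vehicle array, and no vehicle array carried a profile of TNF strength. Vehicle array 6 was the sole vehicle array with a slope below -0.1, its profile running against that of TNF. A slope depends on the scale of the array. TNF arrays 3, 6, 9 and 19 also had the lowest SDs over features among the TNF arrays (0.306, 0.265, 0.297 and 0.345). The lowest TNF slope was 0.767 under a common spread of all arrays and 0.776 after quantile normalization. How far scale set the slopes was not tested.

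**Figure D4:**
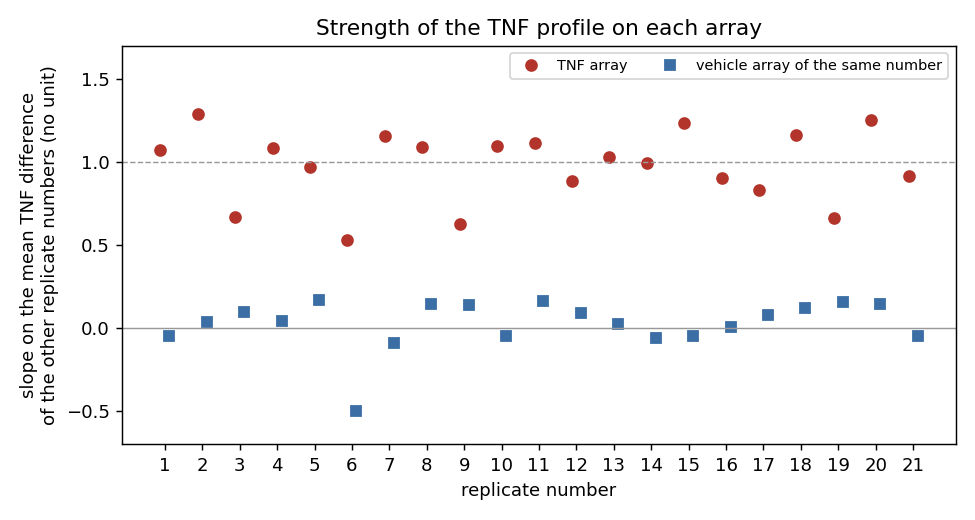
The x axis gives the replicate number and the y axis the slope of an array on the mean TNF minus vehicle profile of all other numbers, where 1 (dashed) is a response of equal strength. The TNF arrays lie between 0.533 and 1.29, and the vehicle arrays lie between -0.501 and 0.169, the lowest being number 6.

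Pairs of the same number gave the direction of most changes. Features were called without the TNF and vehicle array of 1 number, which left 3952 to 4204 calls, and the sign of the difference between the 2 arrays left out was then read. It matched in a median of 88.2% of the called features, from 67.7% for number 17 to 93.4% for number 2. Numbers 17, 19 and 6 were the lowest, with 67.7%, 72.2% and 79.1%, and the other 18 lay at 79.4% or more. For called differences of at least 0.5 the median was 98.3% and the lowest value 83.2%. Higher and lower features had like medians, 88.2% and 88.8%, but for number 19 they stood at 83.1% and 63.0%.

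The response was alike in arrays numbered 1 to 11 and those numbered 12 upwards. This division was known from earlier results of these data, and the labels tie it to no batch. The likeness therefore describes these arrays and is no independent repeat. TNF against vehicle was tested separately on 11 TNF and 11 vehicle arrays and on 10 TNF and 11 vehicle arrays. Numbers 1 to 11 gave 3477 features (49.9%) and numbers 12 upwards 2627 (37.7%). Of the 3477, 97.2% had the same sign in the other arrays, where their median difference in that direction was 0.308 log units against 0.373 where they had been called. Of the 2627, 97.9% had the same sign, with 0.374 against 0.384. Among called features of at least 1, all 59 and all 74 had the same sign in the other arrays. In total 2110 features were called in the same direction on both sides and 8 in opposite directions.

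Some features shifted more between these arrays than any feature differed between TNF and vehicle. From numbers 1 to 11 to numbers 12 upwards, the mean of a feature moved by up to 3.00 log units within TNF and by up to 3.21 within vehicle. Shifts of at least 1 occurred in 47 features within TNF, and in 22 of them within both groups, with the same sign in all 22. Of the 36 features with an SD over 0.7 in TNF, 26 had such a shift, and 12 features kept a TNF SD of that size within the divisions. The division was known from earlier results of these data, so these counts describe it and are no separate support for it.

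For the feature with the widest TNF spread, TNF arrays 12 upwards ran from 2.06 to 2.95 and TNF arrays 1 to 11 from -1.16 to 0.33, against 1.24 to 2.23 and -1.48 to -0.63 in vehicle. Over all arrays it differed between TNF and vehicle by 0.615 (SE 0.446, adjusted p = 0.236 in limma) and was not called. Within numbers 1 to 11 it differed by 0.580 (SE 0.161, adjusted p = 0.00374 in limma), and within 12 upwards by 0.793 (SE 0.126, adjusted p = 9.52e-06 in limma). With the division as a block, 16 called features among the 36 became 28, and the total became 4306, with 195 gained and 0 lost.

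The TNF difference itself was also compared between the divisions. An interaction term in limma called 19 of 6963 features, while 357 (5.13%) had an unadjusted p under 0.05. As the division was known from earlier results of these data, the p values of this term describe these arrays only. The count of called features was 76 under a common spread of all arrays and 68 after quantile normalization. Of the 19, 13 had differences of opposite sign on the 2 sides and 7 had the larger difference in numbers 1 to 11. The one with the lowest adjusted p averaged -0.196 in TNF and -0.231 in vehicle in numbers 1 to 11, but 2.05 in TNF and 0.468 in vehicle from 12 upwards. Its TNF difference was larger from 12 upwards by 1.55 log units (adjusted p = 2.97e-11 in limma). None of the 4 named features passed this test (adjusted p = 0.999 each in limma).

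Features also grouped by the collection that their identifier names. MSK, with 6664 features on 26 plates, gave 3893 called (58.4%), 1836 higher and 2057 lower, and its plates ranged from 51.8% to 64.5%. Of the 73 IRchip2 features, 39 (53.4%) were called, 18 higher and 21 lower, and of the 32 HuM features 21 (65.6%), 4 higher and 17 lower. MMC, with 194 features on 2 plates, gave 158 (81.4%), of which 25 were higher and 133 lower. Against 59.0% over all features, the MMC share was the highest of the collections, and 60 MMC features (30.9%) differed by at least 0.5, compared with 8.70% in MSK. What the collections contain is not given in the sources used here.

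Within MMC the response followed the row of the plate together with odd or even columns, which was noticed after seeing the data. Features were grouped by plate, row letter and odd or even column, and the 533 groups with at least 8 features were compared. The SD of TNF minus vehicle among the features of a group ran from 0.0419 to 0.131 log units over the 14 MMC groups, with a median of 0.088. In the 519 other groups it ran from 0.074 to 0.8975, with a median of 0.274. In 7 of the 14 MMC groups, and in 0 of the 519 others, every feature was called in the same direction. After group means were removed, the pairwise r between features of 1 plate-row group was also taken from array to array. By group it ran from 0.169 to 0.875 in MMC, with a median of 0.598. In the other groups it ran from -0.0999 to 0.6655, with a median of 0.182. The ranges overlapped, so deviating together was not particular to MMC. Whether the wells of a group hold the same cDNA is not given in the sources used here.

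On plate MMC02, the 12 features in odd columns of row c differed by a mean of 1.00, from 0.85 to 1.14. Averaged over them, the TNF arrays had a lowest of 0.644, a median of 0.883 and a highest of 1.69, against -0.403, -0.0104 and 0.344 in vehicle, with no overlap. The 12 in odd columns of row a rose by a mean of 0.59, while the 10 in even columns of that row fell by a mean of 0.41. On plate MMC01, the 12 features in odd columns of row c fell by a mean of 1.03. Their mean ran from -1.57 to -0.372 on TNF arrays with a median of -1.16, against -0.499 to 0.437 with a median of 0.0575 on vehicle arrays. There 18 of 21 TNF arrays lay below every vehicle array, the lowest of which was array 6. MMC01 as a whole gave 1 higher and 110 lower of 145 features, and MMC02 24 and 23 of 49.

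These groups weigh on the largest changes. Of the 22 called features that fell by at least 1, 9 lay on MMC01, and of the 38 that rose by at least 1, 7 lay on MMC02. Without MMC the numbers were 31 higher and 13 lower, against 38 and 22 with it.

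**Figure D5:**
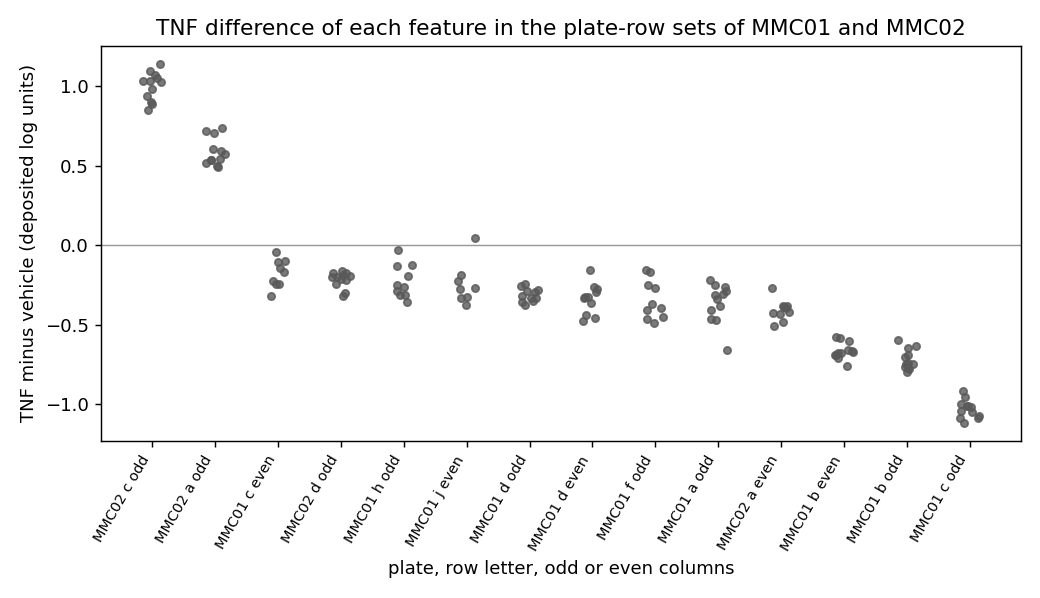
Each point is a feature, the x axis groups them by plate, row letter and odd or even columns, ordered by group mean, and the y axis gives TNF minus vehicle in deposited log units. Points of a group lie close together, from a mean of 1.00 in odd columns of row c of MMC02 to -1.03 in odd columns of row c of MMC01.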

How the data were processed

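RNA from TNF and vehicle cultures was measured on 2-colour spotted arrays. The deposited values, 1 per feature and array, were read as log2 ratios. Per the labels, culture RNA was in Cy5 and the pool in Cy3. No source used here gives the log base, background correction, normalization or signal over background, and the number of arrays limits the precision. Group means were fitted to all 64 arrays by lmFit and eBayes without a block (limma 3.58.1, R 4.3.3), and TNF minus vehicle was adjusted by Benjamini-Hochberg over 6963 features, two-sided, at 0.05. The fit was tested on simulated data in which all arrays were independent. The simulated data lacked the dependence between same-numbered arrays, the shifts and the well-row patterns seen here, so that test does not cover them. Figures used Python 3.11.15 with matplotlib 3.10.9. Replicates were grown and harvested independently, per the design text. Collection on 6 days and 5 passages are stated in the labels for all arrays, without saying which array came from which.

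Without gene symbols, the rule for named features took the largest rise and fall by difference and, other than these, the rise and fall with the largest moderated t, all past the threshold. Members, lists, divisions and rules were chosen with earlier results of these data known. Alternatives covered scaling, thresholds, weights, blocks, left-out arrays and well rows.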

Additional observations from a re-analysis of the deposited data

Results flagged for a closer look

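The TNF minus vehicle difference of 19 features differed between replicate numbers 12 upwards and numbers 1 to 11 in limma's interaction test. The number was 76 under a common MAD of all arrays, 68 after quantile normalization, 29 with well-row means removed, 28 without vehicle arrays 6 and 17, 25 with arrays centred on their median and 10 at an adjusted p under 0.01. The division was known from earlier results of these data, and what separates the arrays was not tested.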

How the results depend on the processing

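Leaving out each of the 43 arrays gave 3988 to 4215 features that differed, 1821 to 1916 higher and 2143 to 2299 lower. It gave 2661 to 2944 features of at least 0.25, 632 to 700 of at least 0.5 and 56 to 67 of at least 1. All TNF arrays lay on 1 side in 1088 to 1339 features, and the groups did not overlap in 58 to 81. Against a 1.2-fold difference, 737 features differed (433 higher, 304 lower, all 737 of at least 0.25), with 4 in HuM, 12 in IRchip2, 63 in MMC and 658 in MSK. A common MAD gave 1453 lower features, 21 without overlap, a lowest TNF slope of 0.767 and 76 features that differed between the divisions. Quantile normalization gave 19, 0.776 and 68, in the same order from features without overlap. Removing well-row means gave 119 and 29, and an adjusted p of 0.01 gave 10 between the divisions. Without vehicle arrays 6 and 17, 98 features had no overlap. Numbers 1 to 11 alone gave 2408 features with all TNF arrays on 1 side, 251 without overlap and 12 in HuM. Numbers 12 upwards alone gave 2627 features (1214 higher, 1413 lower), 2065 on 1 side, 378 without overlap, 13 in HuM and 2463 in MSK. How far the smaller number of arrays in each division set these counts was not tested. The cause of the other changes was not tested either. A fit that took the replicate number as block called 4441 features, and no count of calls moved by over 1.5 times. Same-numbered TNF and vehicle arrays deviated together with r over 0.1 in 19 of 21 pairs, with a median r of 0.361. Of the 21, 11 correlated best with their own number. This dependence is seen in the data and not stated in the design. Since the labels give no shared batch and not every pair was over 0.1, the fit without the block was kept. Its p values do not take the dependence into account. Over 58 settings all 232 values of the 4 named features stayed on the same side of zero and of the threshold, the features having been chosen on these arrays. Leaving out MMC was chosen after seeing the data, as were the settings for the test between divisions.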
